A study of Sus scrofa with 12 samples.

Results

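A set of 10 genes that bear on whether a heart valve cell moves toward bone formation and whether mineral can grow around it was followed in porcine aortic valve interstitial cells (paVICs), the fibroblast-like cells that fill the valve leaflet. They were *RUNX2*, *SOX9*, *MSX2*, *BMP2*, *ALPL*, *ENPP1*, *ANKH*, *SPP1*, *MGP*, and *TNFRSF11B*, and each was looked up by its symbol in a count table of 31908 pig genes. Of these 10 genes, 9 had a row, and 8 had enough counts to be tested. *TNFRSF11B* had no row under its symbol and was not analysed here. The cells were wild type and were held for 24 h in medium with 1% bovine growth serum in 1 of 4 treatments, with 3 libraries of poly-A-selected RNA per treatment. The treatments were vehicle control, 10 μM α-lysophosphatidylcholine (LPC), 60 μM dantrolene, and LPC + dantrolene, and all 12 libraries held 0.6% DMSO and 0.1% ethanol. LPC is a phospholipid of oxidized lipoproteins, and dantrolene is a drug that blocks calcium release through ryanodine receptors. Each replicate number was taken as a separate primary isolation pooled from the valves of several hearts, which the methods describe but the labels do not state. Cells were grown on plastic dishes, a surface that itself activates these cells.

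Calcific aortic valve disease runs through linked processes. In one, valve cells take up an osteoblast-like or cartilage-like program, in which *RUNX2* is the master transcription factor of bone, *SOX9* that of cartilage, *MSX2* a homeobox factor upstream of osteoblast genes, and *BMP2* the secreted ligand that turns them on. In another, the balance of phosphate and pyrophosphate around the cell decides whether hydroxyapatite crystals form. *ENPP1* makes pyrophosphate from extracellular ATP, *ANKH* brings ATP and pyrophosphate out of the cell, and *ALPL* (tissue-nonspecific alkaline phosphatase) degrades pyrophosphate to phosphate. *SPP1* (osteopontin) and *MGP* (matrix Gla protein) are secreted proteins that bind mineral or its precursors and hold crystal growth back.

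Between 16489684 and 24105935 counts per library fell on genes, and 13216 genes were tested in edgeR with all 12 libraries in 1 model. Levels are given as CPM, the count relative to the TMM-scaled library size. A floor of 3 counts was worth 0.114 to 0.186 CPM depending on the library, and it covers counting error only. A gene was called where its p, adjusted over all genes tested, was under 0.05. The deposited counts had already been adjusted for batch, which the labels do not name. The p-values therefore measure the spread that this adjustment left and can be too small. All 14 valve interstitial cell markers were above 1 CPM in every library, among them *VIM*, *COL1A1*, and *PDGFRB*. Of 12 endothelial markers 6 were above 1 CPM in every library. Their list had a summed level of 165 to 196 CPM in vehicle, above 127 to 156 in LPC, 144 to 152 in dantrolene, and 139 to 146 in LPC + dantrolene. With dantrolene against vehicle 1 of 11 tested was called lower, where 1.26% of all genes were. It was *CDH5* (adjusted p = 0.0111), which lost the call with libraries scaled by total counts alone (0.0759). *CYP1B1*, an aryl hydrocarbon receptor target, lay at 4.88 to 60.1 CPM in the 6 libraries without dantrolene and at 385 to 2493 CPM in the 6 with it. The paper had already reported it as raised by dantrolene in these same data. It is therefore no independent check that dantrolene was given. Replicate 2 of LPC + dantrolene stood apart from the other libraries. Its mean correlation of log2 CPM with its own group was 0.909, against 0.937 to 0.974 for the other 11 libraries. Test results that turned on it are therefore given with and without it.

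**Figure D1:**
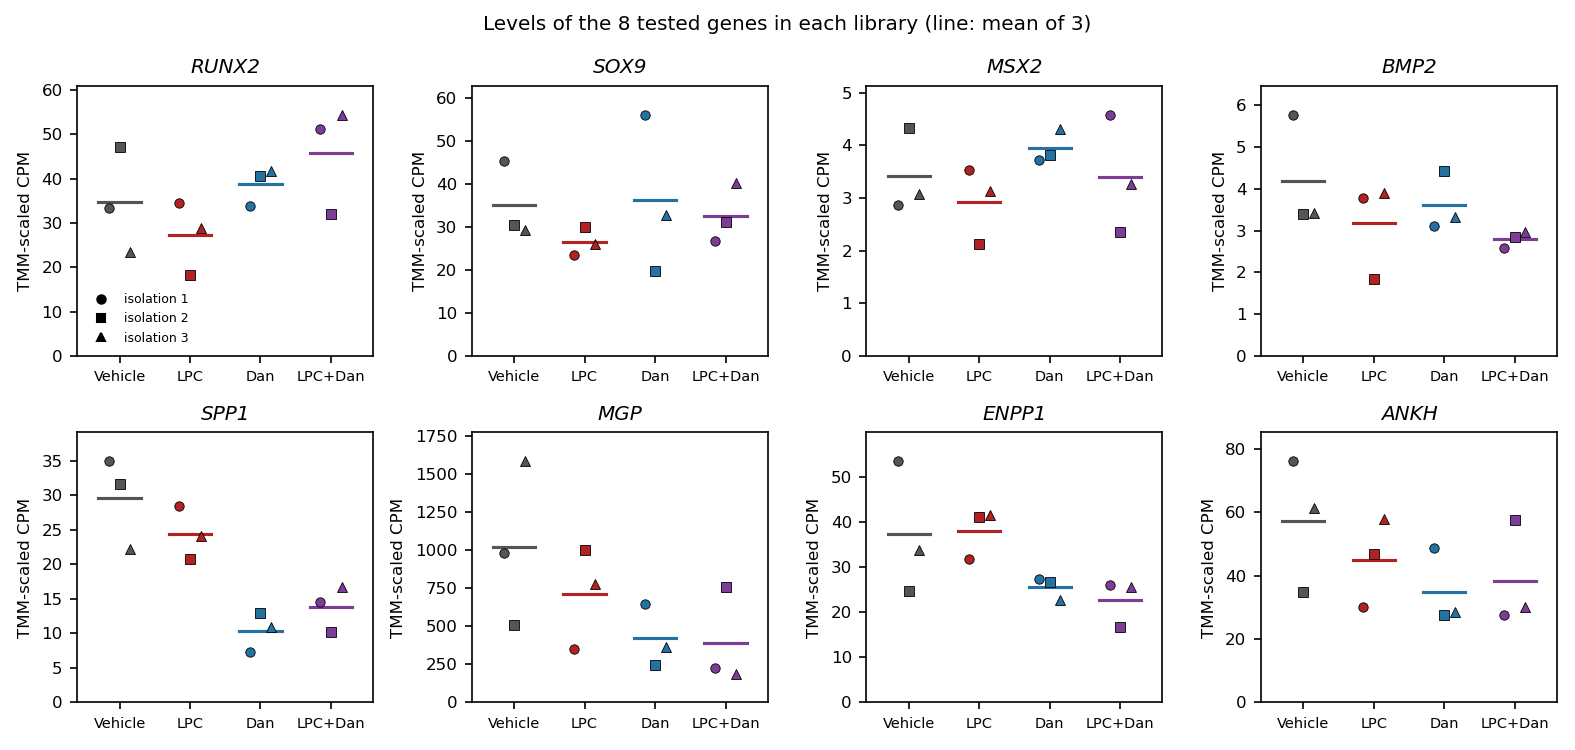
TMM-scaled CPM (y axis, from 0, a separate scale for each gene) of the 8 tested genes in the 4 treatments (x axis; Dan is dantrolene). Each point is a library, its shape gives the isolation, and the line is the mean of 3 libraries. In the *SPP1* panel the 6 libraries with dantrolene lie between 7.28 and 16.6 CPM, below the 6 without it at 20.7 to 34.9 CPM, while in the other 7 panels the libraries with and without dantrolene overlap.

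*SPP1* was the gene of this set that separated the libraries most cleanly by treatment. Its gene lies on chromosome 8 of Sscrofa11.1, bases 131077786 to 131085334. In vehicle control its level was 34.9, 31.7, and 22.3 CPM in replicates 1, 2, and 3, and in LPC it was 28.5, 20.7, and 24.1 CPM. With dantrolene it was 7.28, 13.0, and 10.9 CPM, and with LPC + dantrolene it was 14.5, 10.2, and 16.6 CPM. Every library that received dantrolene was below every library that did not, whether or not LPC was present. Over the 12 libraries, differences between the 4 treatments held 82.6% of the variance of its log2 CPM, the largest share of the 8 tested genes (14.1% to 54.2% for the other 7). Part of the variance lies between such small groups even without an effect, and the share over all genes tested is not given.

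Osteopontin transcripts fell with dantrolene alone, by 1.51 on the log2 scale against vehicle (SE 0.34, adjusted p = 0.00108), which is 2.85-fold lower. The level was lower in all 3 isolations, which any pairing would give as the groups did not overlap. This call held in each of 19 alternative analyses, with an adjusted p between 5.82e-05 and 0.0265. *SPP1* also fell with LPC + dantrolene, by 1.10 against vehicle (SE 0.34, adjusted p = 0.0271), or 2.15-fold, again in all 3 isolations and with no overlap. That second call was less steady. It was lost with the isolation as a replicate block (adjusted p = 0.0752), with libraries scaled by total counts alone (0.188), when only these 2 groups were fitted (0.17), and without vehicle replicate 1 (0.122), vehicle replicate 2 (0.118), or LPC + dantrolene replicates 1 (0.0773) or 3 (0.0614).

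Against LPC alone, LPC + dantrolene had an *SPP1* log2 fold change of −0.82 (SE 0.34), and the groups did not overlap, but the adjusted p was 0.507. LPC alone was at −0.28 against vehicle (95% confidence interval −0.94 to 0.39, adjusted p = 0.711). In the order of the means, vehicle (29.6 CPM ± 6.57, SD, n = 3) was followed by LPC (24.4 ± 3.88), LPC + dantrolene (13.8 ± 3.29), and dantrolene (10.4 ± 2.87). No pair of neighbors in this order differed past the threshold. Osteopontin is also a product of macrophages. Of 10 leukocyte markers, *PTPRC*, *LYZ*, *CD163*, and *CD3E* were at 0 counts in all libraries. *CD14* and *CD68* had counts in every library, at 10.3 to 24.5 CPM and 0.76 to 3.17 CPM. The summed level of the list was 18.3 to 24.4 CPM in vehicle, 13.6 to 25.3 in LPC, 18.0 to 19.6 in dantrolene, and 20.2 to 30.3 in LPC + dantrolene. In RNA from whole cultures, fewer cells that express a gene and less RNA of it per cell cannot be told apart.

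*MGP*, the matrix Gla protein whose vitamin K-dependent residues bind calcium, had the widest range of the set. It lies on chromosome 5, bases 57665272 to 57669360. Its level was 983, 507, and 1584 CPM in vehicle replicates 1 to 3, and 353, 999, and 781 CPM in LPC. With dantrolene it was 649, 248, and 364 CPM, and with LPC + dantrolene it was 230, 762, and 185 CPM. The groups overlapped, and within LPC + dantrolene the highest library was 4.11 times the lowest. The coefficient of variation was 52.7% in vehicle, 46.3% in LPC, 49.1% in dantrolene, and 81.8% in LPC + dantrolene.

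*MGP* fell with dantrolene by 1.28 on the log2 scale against vehicle (SE 0.39, adjusted p = 0.0211), and in all 3 isolations. With LPC + dantrolene it fell by 1.39 (SE 0.39, adjusted p = 0.0126), and was lower in 2 of 3 isolations. In the order of the means, vehicle (1025 CPM ± 540.1, SD, n = 3) stood above LPC (711 ± 329), dantrolene (421 ± 206), and LPC + dantrolene (392 ± 321), and neither vehicle and LPC nor dantrolene and LPC + dantrolene differed past the threshold, while LPC and dantrolene were not compared. These 2 calls rested on the model and on single libraries more than those of *SPP1*. DESeq2 gave an adjusted p of 0.396 with dantrolene and 0.393 with LPC + dantrolene, and with the replicate block they were 0.0977 and 0.0611. With total counts alone they were 0.139 and 0.0615.

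Without vehicle replicate 3, where *MGP* was highest, the log2 fold change was −0.78 with dantrolene (adjusted p = 0.385) and −0.91 with LPC + dantrolene (adjusted p = 0.251). The dantrolene call was also lost without vehicle replicate 1 (adjusted p = 0.112), LPC replicate 1 (0.0522) or 2 (0.111), or dantrolene replicate 2 (0.296) or 3 (0.0584). The LPC + dantrolene call was also lost when only these 2 groups were fitted (0.163), and without vehicle replicate 1 (0.0894), LPC replicate 2 (0.0927), or LPC + dantrolene replicate 1 (0.196) or 3 (0.154). Without LPC + dantrolene replicate 2, where *MGP* was high, the combination was at −2.24 against vehicle (adjusted p = 6.99e-06). Against LPC it was at −0.86 with all libraries (adjusted p = 0.63) and at −1.79 without that replicate (adjusted p = 0.00422), which passed the threshold. Smooth muscle cells also make *MGP*. All 8 smooth muscle markers were above 1 CPM in every library, with a summed level of 2741 to 5339 CPM in vehicle, 2790 to 5069 in LPC, 2391 to 3076 in dantrolene, and 1297 to 3602 in LPC + dantrolene. Of that list, *DES* (desmin) also fell with dantrolene, by 1.30 (adjusted p = 0.0117), and with LPC + dantrolene, by 1.63 (adjusted p = 0.00114). The dantrolene call of *DES* was lost with total counts alone (adjusted p = 0.134) and with DESeq2 (0.0564). Without LPC + dantrolene replicate 2, 4 of the 8 markers were called lower with the combination against vehicle, where 2.89% of all genes were. With all libraries, 1 of the 8 was called higher with LPC, where 8.54% of all genes were. For the interaction of LPC with dantrolene, 1 was called lower, where 4.49% of all genes were. Over the 12 libraries log2 *MGP* had a Pearson correlation of 0.592 with the log2 summed level of this list (Spearman rho 0.524). The paper describes activated valve interstitial cells as contractile, so the list does not by itself show smooth muscle cells. The part of these markers in the *MGP* result was not tested.

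The transcription factors did not pass the threshold in any comparison. *RUNX2* (chromosome 7, bases 40106581 to 40353304) was at 33.3, 47.2, and 23.5 CPM in vehicle and at 34.5, 18.2, and 28.8 CPM in LPC. It was at 33.9, 40.7, and 41.7 CPM with dantrolene and at 51.1, 32.0, and 54.4 CPM with LPC + dantrolene. The 4 groups overlapped, and the 3 dantrolene libraries were the closest together (SD 4.26 CPM around a mean of 38.8). Against vehicle, *RUNX2* with dantrolene was at a log2 fold change of 0.16, with a 95% confidence interval of −0.50 to 0.82, or 0.707-fold to 1.77-fold (adjusted p = 0.863). The combination against LPC was at 0.75 (interval 0.09 to 1.42, unadjusted p = 0.0269, adjusted p = 0.609), and was higher in all 3 isolations.

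*SOX9* (chromosome 12, bases 8642154 to 8647315) was at 45.4, 30.5, and 29.3 CPM in vehicle and at 23.4, 30.0, and 26.0 CPM in LPC. It was at 56.2, 19.7, and 32.9 CPM with dantrolene and at 26.7, 31.1, and 40.2 CPM with LPC + dantrolene. Both the highest and the lowest *SOX9* library were dantrolene libraries, from isolations 1 and 2. The log2 fold change with dantrolene was 0.04 (interval −0.63 to 0.72, adjusted p = 0.968). Over the alternative analyses it ran from −0.36, without dantrolene replicate 1, to 0.34. The interval with all libraries reached 1.64-fold higher, but it rests on the spread the model fitted over the 12 libraries. The 3 dantrolene libraries had a coefficient of variation of 51.0%, so a larger rise is not excluded.

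*MSX2* (chromosome 16, bases 49765587 to 49771745) had 38 to 100 counts per library, or 2.12 to 4.58 CPM, enough to be tested but with wide errors. Its level was 2.86, 4.32, and 3.08 CPM in vehicle, 3.53, 2.12, and 3.14 in LPC, 3.72, 3.81, and 4.31 with dantrolene, and 4.58, 2.36, and 3.26 with LPC + dantrolene. Its 5 log2 fold changes between groups lay between −0.22 and 0.22, with standard errors of 0.45 to 0.46. *BMP2* (chromosome 17, bases 15750487 to 15762982) had 34 to 121 counts. Its level was 5.77, 3.39, and 3.43 CPM in vehicle, 3.79, 1.85, and 3.91 in LPC, 3.12, 4.42, and 3.33 with dantrolene, and 2.58, 2.86, and 2.96 with LPC + dantrolene. The 3 combination libraries lay below all vehicle and all dantrolene libraries, but at a log2 fold change of −0.59 against vehicle (adjusted p = 0.724) and −0.38 against dantrolene (adjusted p = 1). A position with no overlap on the lower side was held by 5.74% of all genes tested against vehicle and by 2.17% against dantrolene.

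Of the genes that set extracellular pyrophosphate, *ENPP1* and *ANKH* were measured well and *ALPL* was too low to read. *ENPP1* (chromosome 1, bases 31724290 to 31796594) was at 53.4, 24.6, and 33.7 CPM in vehicle and at 31.7, 41.0, and 41.5 CPM in LPC. It was at 27.3, 26.7, and 22.6 CPM with dantrolene and at 25.9, 16.7, and 25.5 CPM with LPC + dantrolene. All 3 combination libraries lay below all 3 LPC libraries. The log2 fold change of that comparison was −0.74 (SE 0.33), with an unadjusted p of 0.0284 and an adjusted p of 0.624. Against vehicle, *ENPP1* was at −0.71 with the combination (adjusted p = 0.275) and at −0.54 with dantrolene (adjusted p = 0.465).

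*ANKH* (chromosome 16, bases 4095582 to 4271073) was at 76.0, 34.8, and 61.2 CPM in vehicle and at 30.2, 47.0, and 57.7 CPM in LPC. It was at 48.7, 27.4, and 28.4 CPM with dantrolene and at 27.5, 57.5, and 30.2 CPM with LPC + dantrolene. The level was lower with dantrolene than with vehicle in all 3 isolations, at a log2 fold change of −0.72 (SE 0.34, unadjusted p = 0.0389, adjusted p = 0.257). The combination was at −0.58 against vehicle (adjusted p = 0.508), and without its replicate 2, the highest of that group, at −0.94 (adjusted p = 0.0354). *ALPL* (chromosome 6, bases 79589695 to 79649646) had 26, 0, and 1 counts in vehicle replicates 1, 2, and 3 and 0 counts in all 9 treated libraries. A count of 0 in these libraries allows up to 0.186 CPM, and since 1 vehicle library held nearly all counts, no change of alkaline phosphatase could be read.

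**Figure D2:**
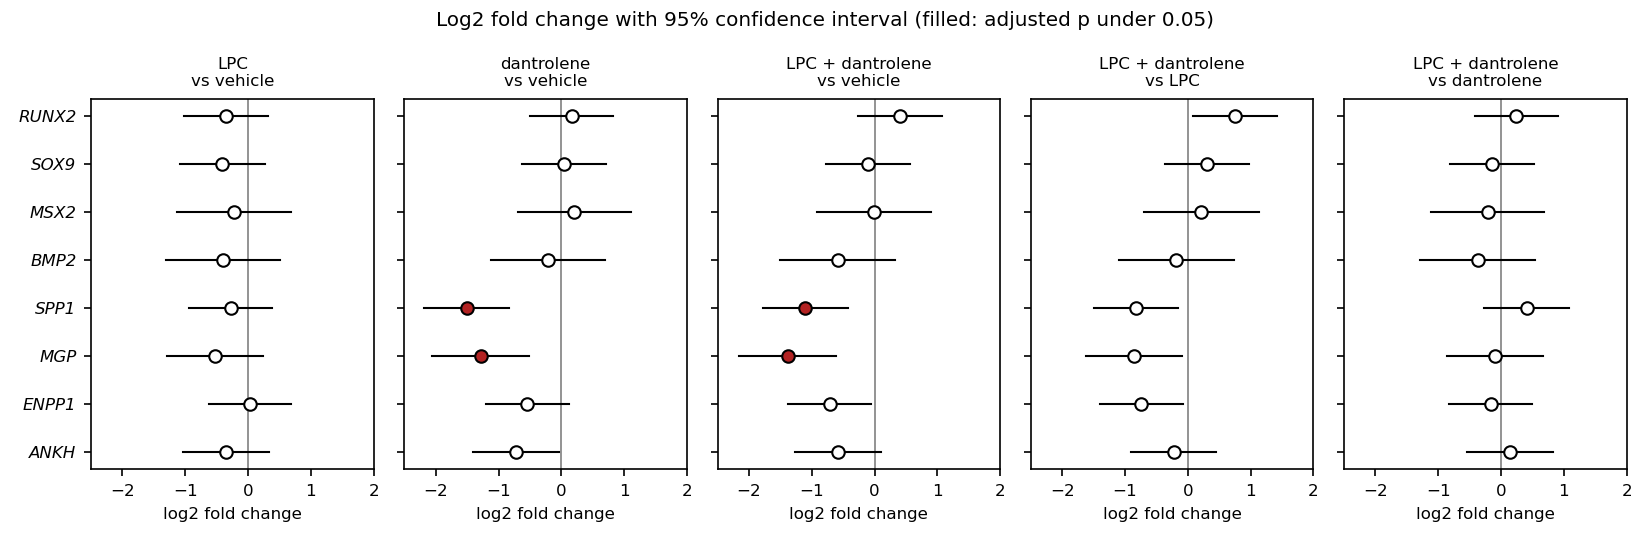
Log2 fold change (x axis) of the 8 tested genes (y axis) in the 5 comparisons between groups, with 95% confidence intervals from edgeR as lines. Filled points passed an adjusted p of 0.05, and these were *SPP1* and *MGP* with dantrolene and with LPC + dantrolene, both against vehicle.

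Counted over the set, dantrolene against vehicle called 2 of 8 genes, *SPP1* and *MGP*, both lower, in a comparison where 1.26% of all genes tested were called lower and 7.54% higher. The combination against vehicle called the same 2 genes, both lower, where 0.9% of all genes were called lower and 6.23% higher. Both comparisons share the vehicle libraries, so the second is no independent repeat of the first. LPC against vehicle called 0 of 8 genes with edgeR, 0 at an unadjusted p under 0.05, and 0 with DESeq2, where 8.69% of all genes were called. The smallest adjusted p among the 8 was 0.572, for *MGP*. The median log2 fold change of the 8 genes was −0.35 with LPC, −0.38 with dantrolene, and −0.58 with the combination, beside −0.18, −0.11, and −0.08 over all genes tested. With no overlap between the groups on the lower side stood 1 of 8 genes with dantrolene (11% of all genes tested) and 2 of 8 with the combination (5.74%).

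The combination against LPC, which asks what dantrolene did to cells that received the lipid, called 0 of 8 genes with edgeR and 0 with DESeq2, and 0.507% of all genes. At an unadjusted p under 0.05 it had *RUNX2* on the higher side and *SPP1*, *MGP*, and *ENPP1* on the lower side. Of these, *SPP1* and *ENPP1* did not overlap between the groups, a position held on the lower side by 4.93% of all genes. The combination against dantrolene called 0 of 8 genes with edgeR, 0 at an unadjusted p under 0.05, and 0 with DESeq2, where 0.0227% of all genes were called. The interaction, the difference between the LPC effects in cells with and without dantrolene, also called 0 of 8 by all 3 counts, where 4.65% of all genes were called, nearly all on the lower side (4.49%).

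The dantrolene effect without LPC and that with LPC were also averaged, a comparison of 6 libraries against 6 chosen after the values were seen. On this average *SPP1* was lower by 1.17 on the log2 scale (SE 0.24, adjusted p = 0.000961), and in 6 of 6 pairs of the same isolation. These 6 pairs come from 3 isolations. As the *SPP1* libraries did not overlap, any pairing would give this count for *SPP1*. *MGP* was lower by 1.07 (SE 0.27, adjusted p = 0.0105), also in 6 of 6 pairs. These were the 2 of 8 genes called, where 1.45% of all genes were called lower and 2.55% higher. *SPP1* alone did not overlap, a position on the lower side held by 0.431% of all genes. With the replicate block, total counts alone, or DESeq2, *MGP* lost the call, with adjusted p-values of 0.0801, 0.0653, and 0.328. It also lost it without vehicle replicate 1 (0.071) or 3 (0.0545), LPC replicate 2 (0.219), dantrolene replicate 2 (0.117), or LPC + dantrolene replicate 1 (0.0789). *RUNX2* was at 0.46 (adjusted p = 0.402) and higher in 5 of 6 pairs, *ENPP1* at −0.64 (unadjusted p = 0.00755, adjusted p = 0.119) and lower in 5 of 6, and *ANKH* at −0.47 (adjusted p = 0.397). Without LPC + dantrolene replicate 2, 4 of 8 genes passed the threshold, as *RUNX2* rose to 0.58 (adjusted p = 0.0445) and *ANKH* moved to −0.66 (adjusted p = 0.0296).

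Counts of 2 genes can be divided within a library, which takes the scaling of libraries out of the comparison. The ratio of *RUNX2* to *SPP1* counts was 0.954, 1.49, and 1.05 in vehicle and 1.21, 0.88, and 1.19 in LPC. It was 4.65, 3.14, and 3.83 with dantrolene and 3.52, 3.14, and 3.27 with LPC + dantrolene. The lowest ratio with dantrolene was above the highest without it, and replicate 2 of the combination, which stood apart for single genes, lay with the other 5 libraries. Of the 28 ratios between the 8 tested genes, 4 did not overlap between the libraries with and without dantrolene, and all 4 held *SPP1*. The other 3 set it against *SOX9* (0.822 to 1.45 without and 1.52 to 7.71 with dantrolene), *MSX2* (0.082 to 0.138 and 0.196 to 0.511), and *BMP2* (*SPP1* over *BMP2*, 6.05 to 11.2 and 2.33 to 5.63). *SPP1* alone already separated the libraries with and without dantrolene, so the 4 ratios tell nothing further about the other gene in each. The share of all gene pairs whose ratios separate in this way was not computed. These ratios were examined with the levels known and carry no test.

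**Figure D3:**
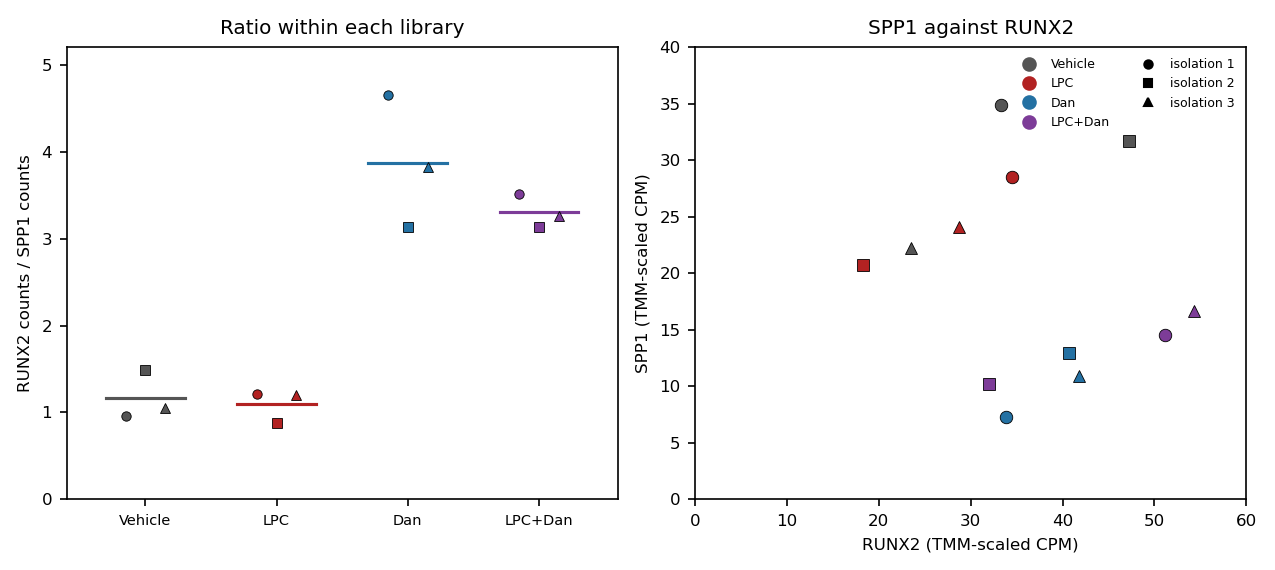
Left, the ratio of *RUNX2* to *SPP1* counts (y axis, from 0) in each library of the 4 treatments (x axis), with the mean of 3 as a line. Right, *SPP1* against *RUNX2*, both in TMM-scaled CPM, with a color per treatment and a shape per isolation. The ratio lies between 0.88 and 1.49 without dantrolene and between 3.14 and 4.65 with it.

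Within the treatments several of the 8 genes varied together. After the mean of each group was subtracted, log2 CPM of *RUNX2* and *MGP* had a Pearson correlation of −0.906 over the 12 libraries, and *SPP1* and *MGP* one of −0.879. *ANKH* and *MGP* had one of 0.878. So a library rich in *MGP* for its treatment was also rich in *ANKH*, which guards against mineral as *MGP* does, and poor in *RUNX2* and *SPP1*. Replicate 2 of LPC + dantrolene lay apart from its group in this direction. Its *MGP* was 762 CPM, against 230 and 185, and its *RUNX2* 32.0 CPM, against 51.1 and 54.4. These correlations are given with all 12 libraries only, so how far they rest on that library is not shown. *RUNX2* and *MSX2* went together (0.828), as did *RUNX2* and *SPP1* (0.78). The within-group correlations with the other 7 genes were weaker for *SOX9* (−0.355 to 0.518) and *ENPP1* (−0.163 to 0.354), and *BMP2* had one of −0.304 with *MGP*. *MGP* also went with the TMM factor of the library (Pearson r −0.797, Spearman rho −0.776), and so did *ANKH* (−0.808 and −0.804). The part of the libraries' scaling in these relations was not tested. All correlations are descriptions over 12 libraries of 4 treatments, in counts that share the adjustment for batch.

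**Figure D4:**
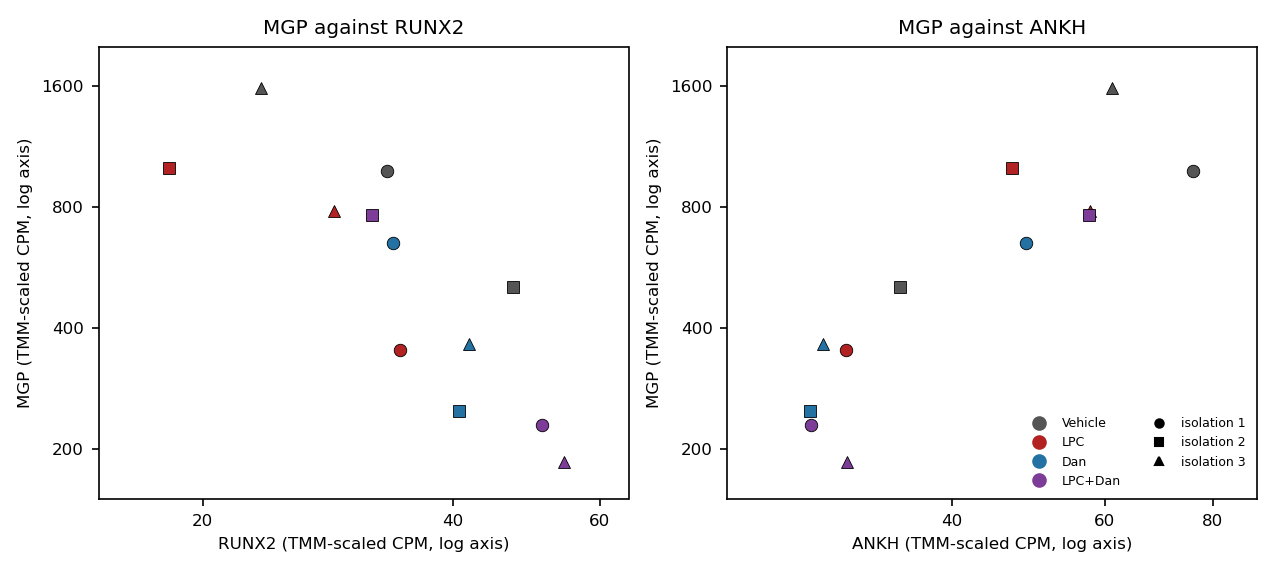
*MGP* (y axis) against *RUNX2* (left, x axis) and against *ANKH* (right, x axis), in TMM-scaled CPM on log axes, with 1 point per library, a color per treatment, and a shape per isolation. *MGP* is high where *RUNX2* is low (within-group Pearson r of −0.906) and where *ANKH* is high (0.878).

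By the rule set for called genes, the 3 genes with levels most like *SPP1* over the 12 libraries were *KIF20A*, a mitotic kinesin (Pearson r 0.925), *MLNR*, the motilin receptor (0.911), and *NCAPG2*, a condensin subunit (0.911). The 3 most like *MGP* were *CCND3*, a D-type cyclin (0.98), *CSRP1*, a LIM protein of the actin cytoskeleton (0.976), and *THY1*, a surface marker of fibroblasts (0.975).

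The other genes of these pathways were read from 7 lists. Of 18 tested osteoblast transcription factors and partners, edgeR called 0 in each of the 6 comparisons, as did DESeq2, and 0 to 2 per comparison had an unadjusted p under 0.05. When replicate 2 of LPC + dantrolene was left out, 1 of the 18 was called higher with the combination against vehicle, where 12.6% of all genes then were. It was *CBFB*, the binding partner of *RUNX2* (0.90, adjusted p = 0.0191), named after its value was seen. The list median was −0.32 with LPC, −0.34 with dantrolene, and −0.09 with the combination, beside −0.18, −0.11, and −0.08 over all genes tested. *SP7* (osterix), which acts downstream of *RUNX2*, had at most 15 counts in a library and was too low to test. Among 13 tested genes of the cartilage program of *SOX9*, *COL11A1*, a cartilage collagen chain, fell in the combination against LPC by 1.38 (adjusted p = 0.0464), where 0.288% of all genes were called lower. That call was lost in 14 of 19 alternatives, among them the replicate block (adjusted p = 0.216), total counts alone (0.27), and LPC replicate 2 left out (0.7). The median of the cartilage list was −0.41 with LPC, −0.09 with dantrolene, and −0.39 with the combination, and edgeR and DESeq2 both called 0 of its 13 genes against vehicle, with 0 to 2 on either side at an unadjusted p under 0.05. Without LPC + dantrolene replicate 2, *SOX6* was called higher with LPC (1.01, adjusted p = 0.00785), where 11.9% of all genes then were, and *SOX8* lower with the combination (−1.69, adjusted p = 0.00246), where 2.89% were. Both are factors related to *SOX9* and are named after their values were seen.

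In the BMP pathway, 23 genes were tested beside *BMP2*. *BMPR1A*, a type I receptor, and *SMAD5*, a signal transducer of it, were called higher in all 3 treatments against vehicle. *BMPR1A* was at 19.4, 13.8, and 12.8 CPM in vehicle, 48.9, 68.0, and 48.6 with LPC, 31.1, 57.3, and 41.6 with dantrolene, and 49.6, 12.5, and 43.8 with the combination, whose replicate 2 was below all vehicle libraries. The adjusted p-values were 9.77e-05, 0.00202, and 0.0198 for *BMPR1A* and 0.000223, 0.00247, and 0.00553 for *SMAD5*, with log2 fold changes of 1.41 to 1.79 for the latter. Without LPC + dantrolene replicate 1 the combination's calls were lost (adjusted p = 0.257 and 0.0999), as were the dantrolene calls without dantrolene replicate 2 (0.0641 and 0.0783). These were the 2 of 23 genes that rose with LPC, where 8.54% of all genes were called higher. The target *ID3*, which BMP signals induce, fell by 1.14 with dantrolene (adjusted p = 0.0204) and by 1.37 with the combination (adjusted p = 0.00402), and without vehicle replicate 3 the adjusted p-values were 0.357 and 0.124. With dantrolene, 3 of 23 rose and 2 fell, where 7.54% of all genes were called higher and 1.26% lower, the others being *BMPER*, a secreted BMP modulator (1.19, adjusted p = 0.0403), and the ligand *BMP4* (−1.04, adjusted p = 0.0408), which is named beyond the rule for gene names. With the replicate block the dantrolene calls of *ID3* (adjusted p = 0.0619), *BMPER* (0.104), and *BMP4* (0.107) and the combination's call of *BMPR1A* (0.0828) were lost, and without vehicle replicate 3 *BMPER* (0.303) and *BMP4* (0.414) also lost theirs. *ID1*, a close relative of *ID3*, was at 27.2 CPM ± 13.8 in vehicle and at means of 14.5 to 16.0 CPM in the treated groups, and was not called (adjusted p = 0.137 to 0.256). With the combination 2 of 23 rose and 1 fell, where 6.23% and 0.9% of all genes did. If replicate 2 of LPC + dantrolene was left out, these counts were 4 and 4 with the combination (12.6% and 2.89% of all genes), 4 and 3 with dantrolene (11.2% and 2.09%), and 4 higher with LPC (11.9%). The list median was −0.11 with LPC, −0.08 with dantrolene, and −0.25 with the combination.

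Of 14 tested bone matrix genes, *POSTN* (periostin) rose with LPC by 1.60 (adjusted p = 0.00188, and 0.316 without LPC replicate 2). *OMD* (osteomodulin) rose with LPC by 1.72 (adjusted p = 0.00452) and with dantrolene by 1.74 (adjusted p = 0.00477), and without vehicle replicate 2 the adjusted p-values were 0.136 and 0.131. *TNC* (tenascin C) fell with dantrolene by 1.09 (adjusted p = 0.0248), and lost the call with the replicate block (0.0549) and without dantrolene replicate 2 (0.255). So 2 of the 14 were called higher with LPC, where 8.54% of all genes were. With dantrolene 1 was called higher and 1 lower, where 7.54% and 1.26% of all genes were. *BGLAP*, which encodes osteocalcin, had at most 34 counts in a library and was not called, and *IBSP*, which encodes bone sialoprotein, had 0 counts in all 12 libraries. With the combination against vehicle edgeR and DESeq2 called 0 of the 14, with 2 higher and 1 lower at an unadjusted p under 0.05. With replicate 2 of LPC + dantrolene left out, edgeR called 2 higher, *POSTN* and *OMD*, and 3 lower, *TNC*, *SPARC*, and *SMOC1*, of which the last pair were named after their values were seen. Of all genes, 12.6% were called higher and 2.89% lower in that fit. *POSTN* with LPC was not called by DESeq2 (adjusted p = 0.12). The list medians were −0.45 with LPC, −0.47 with dantrolene, and −0.15 with the combination, so the called genes and the middle of the list lay on opposite sides of 0 for LPC.

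From a list drawn up as inhibitors of calcification, 8 genes were tested beside *MGP* and *SPP1*. A place on this list does not show that a gene holds mineral back, which was not tested. *LUM* (lumican) was called higher in all 3 treatments, by 1.35 with LPC, 1.59 with dantrolene, and 1.35 with the combination. The adjusted p-values were 0.00351, 0.000608, and 0.0042, of which that for LPC was 0.165 without LPC replicate 2 and that for the combination 0.122 without vehicle replicate 2. *ASPN* (asporin), a small proteoglycan that binds collagen and calcium, rose with LPC by 1.53 (adjusted p = 0.000857, and 0.066 without vehicle replicate 2) and fell in the combination against LPC by 1.66 (adjusted p = 0.00418, and 0.278 without LPC replicate 2). *STC2* (stanniocalcin 2), a regulator of calcium and phosphate, fell with dantrolene by 1.06 (adjusted p = 0.0237), and lost the call with the replicate block (0.0582) and without dantrolene replicate 2 (0.251). In the fit that left out replicate 2 of LPC + dantrolene, *STC2* (adjusted p = 0.00419) and *ELN*, which encodes elastin (adjusted p = 0.0121, named after its value was seen), were also called lower with the combination against vehicle, where 2.89% of all genes were. The list medians were −0.11, −0.28, and −0.26 with LPC, dantrolene, and the combination.

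Of 17 tested genes of phosphate, pyrophosphate, and adenosine handling, 1 was called against vehicle in each treatment, higher, where 8.54% of all genes were called higher with LPC, 7.54% with dantrolene, and 6.23% with the combination. It was *TRPM7*, a channel-kinase for magnesium and calcium, which rose by 2.31 with LPC (adjusted p = 4.59e-06), 2.18 with dantrolene (adjusted p = 1.71e-05), and 2.29 with the combination (adjusted p = 1.14e-05). With the combination DESeq2 called 2 higher, *TRPM7* and *FAM20A*, a pseudokinase of the secretory pathway. With replicate 2 of LPC + dantrolene left out, edgeR called 3 higher, these and the phosphate exporter *XPR1*, and 2 lower, the annexins *ANXA2* and *ANXA5*, of which all but *TRPM7* are named after their values were seen. In that fit 12.6% of all genes were called higher and 2.89% lower. The list medians were −0.31, −0.32, and 0.0052. *NT5E*, which makes adenosine and phosphate from AMP, was at means of 106 to 143 CPM, and *SLC20A1*, a phosphate importer, at means of 94.6 to 112 CPM, and neither was called. *ABCC6*, which releases ATP for *ENPP1*, had at most 11 counts in a library and was too low to test. Of 4 tested genes of the RANK axis, 0 were called by edgeR or DESeq2, 0 to 1 per comparison had an unadjusted p under 0.05, and the list medians were −0.21, −0.20, and −0.15. *TNFSF11*, which encodes RANKL, the ligand that osteoprotegerin traps, had 0 counts in all 12 libraries.

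**Figure D5:**
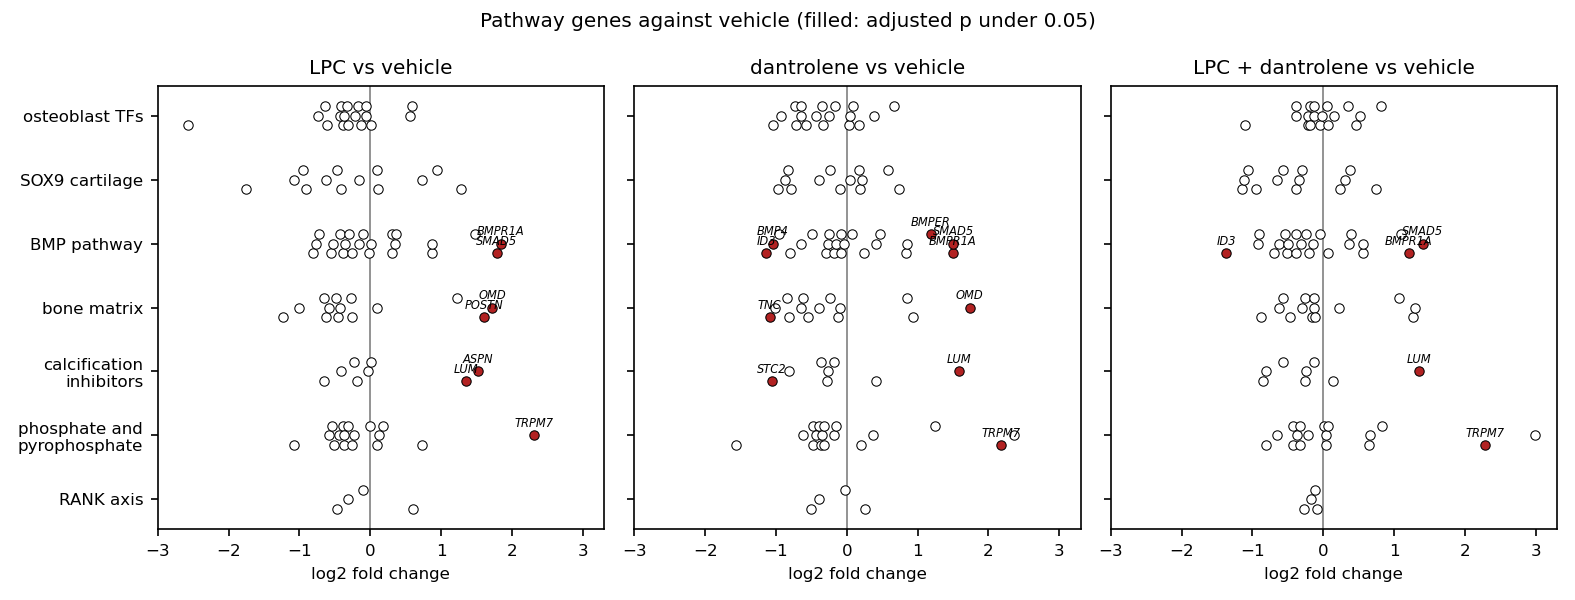
Log2 fold change against vehicle (x axis) of each tested gene of the 7 pathway lists (y axis) in the 3 treatments, 1 point per gene. Filled, labelled points passed an adjusted p of 0.05. Most called genes lie to the right of 0, as do most called genes of the whole table, and the called genes to the left are *ID3*, *BMP4*, *TNC*, and *STC2*.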

How the data were processed

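Poly-A RNA libraries of paVICs in 4 groups of 3 were analysed. The authors made the counts with STAR by the paper's methods, while the submitters' processing notes name HISAT2 2.0.5, R 4.1.1, DESeq2 1.32.0, and Sscrofa11.1, so the aligner is uncertain. The authors adjusted the counts for batch with ComBat and deposited whole-number counts per gene. Tables of the authors' own comparisons (fold changes and p-values) were not used. Gene positions are those of NCBI RefSeq on Sscrofa11.1, matched by symbol.

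Genes passing filterByExpr were scaled with TMM factors and fitted with edgeR 4.0.16 (quasi-likelihood F test, R 4.3.3) across the 12 libraries, with no covariate beside the treatment, and Benjamini-Hochberg adjustment over 13216 genes. Correlations used log2 CPM with a prior count of 2. A gene was too low to read where it failed the filter or no library had 10 counts. Named were the 10 genes, list genes called in a comparison (at most 4 per list and comparison), 8 further pathway genes, and the 3 genes most like each called one. The 10 genes, lists, and tests were chosen with earlier results of these data known. Scripts were tested on simulated data.

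Same-numbered libraries were taken as pairs from the same isolation, which the labels do not state. The deviations of these pairs from the group means had a median correlation of −0.152 (−0.536 to 0.207). Since the counts had already been adjusted for batch, this value cannot test the pairing. Alternatives were a block for the isolation, leaving out each library, DESeq2 1.42.0, RLE factors or total counts alone for scaling, fits of only 2 groups, and a filter of 10 counts per library or none. The average over both dantrolene effects was added after seeing the data.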

Additional observations from a re-analysis of the deposited data

Results flagged for a closer look

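None of the 8 tested genes had an LPC effect that differed with dantrolene past the threshold. Of 13 pathway genes called in a comparison between groups, 6 did, on the lower side, where 4.49% of all genes tested were called lower for this interaction. These 13 genes were chosen for their calls in comparisons that use the same vehicle, LPC, and dantrolene libraries, and a choice of genes higher than vehicle with both agents favors a negative interaction. The count is therefore a description of these genes. The interactions on the log2 scale were −2.21 for *TRPM7* (SE 0.51, adjusted p = 0.00341), −2.07 for *ASPN* (SE 0.48, adjusted p = 0.00398), −2.14 for *BMPR1A* (SE 0.50, adjusted p = 0.00398), −1.88 for *SMAD5* (SE 0.51, adjusted p = 0.0147), −2.19 for *OMD* (SE 0.62, adjusted p = 0.0211), and −1.58 for *LUM* (SE 0.48, adjusted p = 0.0367).

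*ASPN* differed from the other 5 in its levels. It was at 133, 41.2, and 83.2 CPM in vehicle, 130, 335, and 278 in LPC, 128, 110, and 105 with dantrolene, and 94.7, 70.0, and 69.8 with LPC + dantrolene, so that only the LPC group was called higher than vehicle. In *TRPM7*, *BMPR1A*, *SMAD5*, *OMD*, and *LUM* dantrolene alone was also called higher than vehicle, and the combination was not called against either single treatment. In all 5 of these, replicate 2 of LPC + dantrolene was the lowest of its group. With the replicate block, *SMAD5* (adjusted p = 0.0539) and *LUM* (0.0978) lost the call. The highest adjusted p over the alternatives was 0.0933 for *TRPM7*, 0.0958 for *ASPN*, 0.0928 for *BMPR1A*, 0.151 for *SMAD5*, 0.222 for *OMD*, and 0.286 for *LUM*, each without 1 library, which was LPC replicate 2 for *ASPN*, *BMPR1A*, *OMD*, and *LUM* and dantrolene replicate 2 for *TRPM7* and *SMAD5*.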

How the results depend on the processing

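Of the gene results, the fall of *SPP1* with dantrolene kept its call in all 19 alternatives. The count of called genes with dantrolene against vehicle (2) was 1 with total counts alone, 1 with DESeq2, 1 with the replicate block, and 1 to 2 with 1 library left out. With the combination against vehicle (2) it was 0 with total counts alone, 1 with DESeq2, 0 with only the 2 groups compared, 0 with the replicate block, and 0 to 3 with 1 library left out. Against LPC (0) it was 0 to 1 with 1 library left out, the 1 being *MGP* without LPC + dantrolene replicate 2. On the average over both dantrolene effects (2) it was 1 with total counts alone, DESeq2, or the replicate block and 1 to 4 with 1 library left out. The block changed no other call of these 8 genes. Total counts alone moved the median log2 fold change of all genes from −0.18 to −0.0023 with LPC, from −0.11 to 0.13 with dantrolene, and from −0.08 to 0.12 with the combination.

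Signs turned only in values that were not called. Total counts alone gave 0.028 for *BMP2* with dantrolene, 0.11 for *SOX9* and 0.25 for *MSX2* with the combination against vehicle, and interactions of −0.16 for *MSX2* and −0.17 for *BMP2*. RLE factors gave 0.054 for *MSX2* with the combination and interactions of −0.041 (*MSX2*) and −0.016 (*BMP2*), and DESeq2 gave 0.056, −0.041, and −0.017 for the same values. At least 10 counts in every library gave 0.0083 for *MSX2* with the combination, and only the 2 groups compared gave 0.10 for *MSX2* and 0.00044 for *SOX9*. With 1 library left out, log2 fold changes spanned 0 for *ENPP1* with LPC (−0.19 to 0.38), for *RUNX2* (−0.0056 to 0.45), *SOX9* (−0.36 to 0.34), and *BMP2* (−0.38 to 0.090) with dantrolene, for *SOX9* (−0.28 to 0.13) and *MSX2* (−0.28 to 0.25) with the combination against vehicle, and for *MSX2* against LPC (−0.060 to 0.41). Against dantrolene they did so for *SOX9* (−0.45 to 0.30), *ENPP1* (−0.28 to 0.0038), *ANKH* (−0.28 to 0.44), and *MGP* (−1.03 to 0.33), for the interaction of *SOX9* (−0.038 to 0.64), *MSX2* (−0.27 to 0.16), *ENPP1* (−0.55 to 0.026), *MGP* (−0.58 to 0.78), and *BMP2* (−0.28 to 0.20), and for the averaged effect on *SOX9* (−0.042 to 0.32). The causes were not tested. With 34 to 121 counts, the depth limits *MSX2* and *BMP2*, and *ALPL* could not be read.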
